A study of Oryza brachyantha and Oryza sativa Japonica Group and Oryza glaberrima with 38 samples.

Results

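Neighbouring steps of the same histone modification, H3K4me2 and H3K4me3 (histone H3 carrying 2 or 3 methyl groups on lysine 4), were compared across the genome of the wild rice Oryza brachyantha. Both peak lists came from chromatin immunoprecipitation followed by sequencing (ChIP-seq) of above-ground tissue of plants at the tillering stage, 60 days after germination, in batch 1 of the labels. The H3K4me2 library was made with an antibody from Abcam and the H3K4me3 library with one from Millipore, and the titles name a separate library of total histone H3 for each as its control. All intervals on chromosomes 1 to 12 were taken, which gave 41187 H3K4me2 and 24282 H3K4me3 intervals, together 65469 of the 532158 peaks in the 21 lists of the series. A second H3K4me3 list from the same stage, batch 2 with 26639 intervals, has an input library as its control in the titles, and served as a measure of how far H3K4me3 itself differs between libraries. The labels name no genotype or treatment, and do not say whether the batches came from separate plants. Aerial tissue is a mixture of cell types, so both marks on 1 chromosome and each mark in different cells cannot be told apart. With 1 library per mark no test between the marks was possible, and the intervals in brackets below cover the counting of peaks only.

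In plants, as in other eukaryotes, H3K4me3 is laid down at the 5′ ends of genes that are being transcribed. H3K4me2 is known from other plants to reach further into genes, and it is also found on genes with little transcription. Demethylases and methyltransferases turn one state into the other, so that a nucleosome tail holds one of them at a time. H3K9Ac and H3K56Ac, used below as further marks, are acetylations found at active gene starts, H3K27me2 is a methylation of lysine 27, and H3K9me2 marks silent heterochromatin.

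H3K4me2 intervals were more numerous and covered more of the genome than H3K4me3 intervals, and many of them were short and weak. H3K4me2 covered 33.3 Mb, or 12.8% of the 259 Mb of the chromosomes, and H3K4me3 21.4 Mb, or 8.27%. The median width was 681 bp for H3K4me2 (quartiles 359 and 1085 bp) and 838 bp for H3K4me3 (quartiles 551 and 1108 bp). Intervals under 300 bp made up 19.4% of the H3K4me2 list and 8.9% of the H3K4me3 list. At the other end, intervals of 2000 bp or more made up 3.96% of H3K4me2 (1632 intervals) and 2.62% of H3K4me3 (635 intervals). The widest interval was 7150 bp for H3K4me2 and 4899 bp for H3K4me3. The order of the medians depended on the weak intervals. Here −log10 q, a score of significance, was taken as the measure of peak strength. As many H3K4me2 intervals were then taken as there were H3K4me3 intervals, those of highest −log10 q. The median was 952 bp for these H3K4me2 intervals and 838 bp for H3K4me3. H3K4me3 of batch 2 had a median width of 779 bp.

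The authors' own peak scores were lower for H3K4me2 than for H3K4me3 of batch 1. The median pileup, the height of stacked fragments at the peak, was 49 for H3K4me2 and 124 for H3K4me3. The median enrichment over the H3 control was 3.47-fold for H3K4me2 and 5.67-fold for H3K4me3, and the median −log10 q was 12.4 for H3K4me2 and 53.3 for H3K4me3. Both lists began at the same −log10 q of 1.31. The pileup of the batch 2 H3K4me3 list had a median of 45, so pileup differed between libraries of 1 mark as much as between the marks, and read depth is unknown. The median −log10 q of that list was 18.6, so most of the gap in −log10 q was also found between libraries of H3K4me3. Its median enrichment, over input, was 5.28-fold.

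**Figure D1:**
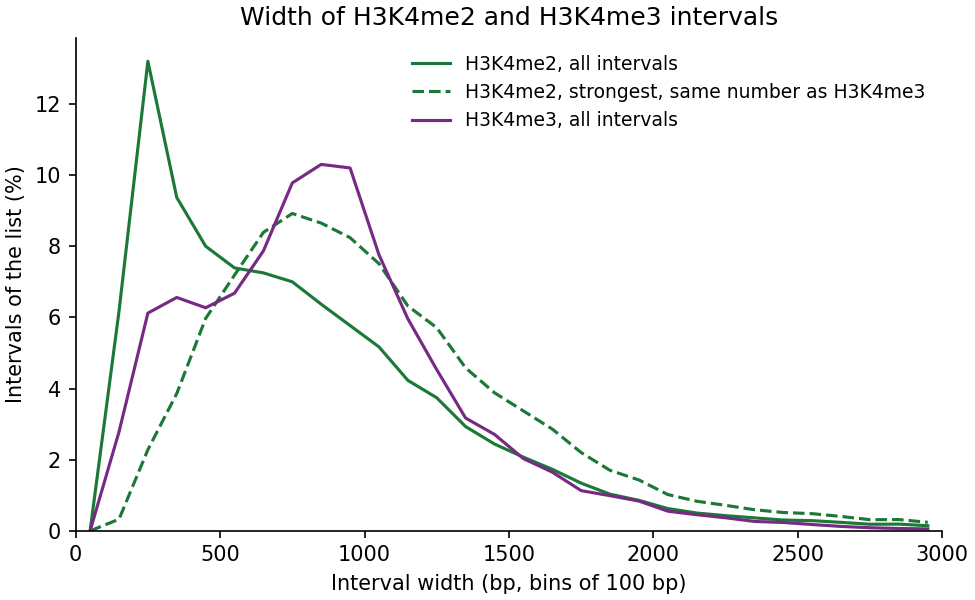
Width of the intervals in bins of 100 bp (x axis) against the percent of each list (y axis), for all 41187 H3K4me2 intervals, for the 24282 H3K4me2 intervals of highest −log10 q, and for all 24282 H3K4me3 intervals. The full H3K4me2 list is highest in the bin from 200 to 299 bp, and its strong intervals have the wider distribution, with a median of 952 bp against 838 bp for H3K4me3.

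Nearly all H3K4me3 intervals touched H3K4me2, whereas a large part of H3K4me2 lay elsewhere. Of the H3K4me2 intervals 16699, or 40.5% (exact binomial interval 40.1% to 41.0%), shared no base with H3K4me3. Of the H3K4me3 intervals 757, or 3.12% (2.9% to 3.34%), shared no base with H3K4me2. In base pairs, 51.6% of H3K4me2 lay outside H3K4me3 and 24.8% of H3K4me3 outside H3K4me2. The lists shared 16.1 Mb, with 17.1 Mb in H3K4me2 alone and 5.3 Mb in H3K4me3 alone. For scale, 54.8% of H3K4me2 summits (the highest point of an interval) lay inside H3K4me3, which takes up 8.27% of the chromosomes. Likewise 82.5% of H3K4me3 summits lay inside H3K4me2, which takes up 12.8%. Most contacts were single: 23709 H3K4me2 intervals touched exactly 1 H3K4me3 interval and 779 touched more, while 21828 H3K4me3 intervals touched 1 H3K4me2 interval and 1697 touched more.

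These shares depended on which intervals of each list were kept. With equal numbers of intervals from each list, 26.2% of H3K4me2 lay outside H3K4me3 and 24% of H3K4me3 lay outside H3K4me2. With only the stronger 50% of each list, 74.5% of H3K4me2 and 57.6% of H3K4me3 lay outside the other mark. This setting leaves out the weaker intervals of both lists. Against the full H3K4me3 list, 74% and 73.3% of the stronger H3K4me2 intervals, quartile groups 3 and 4 by −log10 q, touched H3K4me3.

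In the full lists H3K4me2 covered H3K4me3 peaks far more often than it flanked them. Of the 24282 H3K4me3 intervals, 55.7% had at least 90% of their length inside H3K4me2. A further 26.8% had their summit, but less of their length, inside it. An uncovered summit with H3K4me2 on both sides, within the interval or up to 1000 bp beyond it, was found in 536 H3K4me3 intervals, or 2.21%. An uncovered summit with H3K4me2 on 1 side was found in 13.3%, and 1.97% had no H3K4me2 in reach. Counted together, 15.5% of H3K4me3 intervals (15.1% to 16.0%) had H3K4me2 within or beside them but not over the summit. With only the stronger 50% of each list, H3K4me2 covered 36.1% of H3K4me3 summits and lay on flanks only in 9.23%.

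The edges of the H3K4me3 intervals showed a one-sided arrangement. Both edges lay inside H3K4me2 in 39.6% of H3K4me3 intervals. Exactly 1 edge did so in 43%, and in 14.3% H3K4me2 lay within the H3K4me3 interval without reaching an edge. H3K4me3 intervals enclosed at both edges were short and weak, with a median width of 536 bp and a median −log10 q of 10.1. Those with 1 edge covered had a median width of 931 bp and a median −log10 q of 81.0.

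Summits of the marks were farther apart than summits of the same mark in different libraries. From an H3K4me2 summit the nearest H3K4me3 summit lay at a median distance of 559 bp (quartiles 149 and 2395 bp). This median depended on the peaks kept, with 6457 bp for the stronger 50% of each list and 313 bp for equal numbers of intervals. In the other direction, from each H3K4me3 summit to the nearest H3K4me2 summit, the median was 212 bp (quartiles 57 and 443 bp). Between H3K4me3 of batch 1 and H3K4me3 of batch 2 it was 110 bp (quartiles 38 and 273 bp). Of H3K4me2 summits 20.7% lay within 100 bp of an H3K4me3 summit, 47.6% within 500 bp and 71.6% within 2000 bp. Of H3K4me3 summits 35.1% lay within 100 bp of an H3K4me2 summit and 79.6% within 500 bp, against 47.9% and 89.0% between the H3K4me3 batches. The same base was the summit of both marks in 64 places. The long tail came from H3K4me2 intervals without H3K4me3, whose median distance was 3063 bp, against 215 bp for those that shared a base with H3K4me3. Sonication to fragments of 300 to 500 bp limits how closely a summit can be placed.

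**Figure D2:**
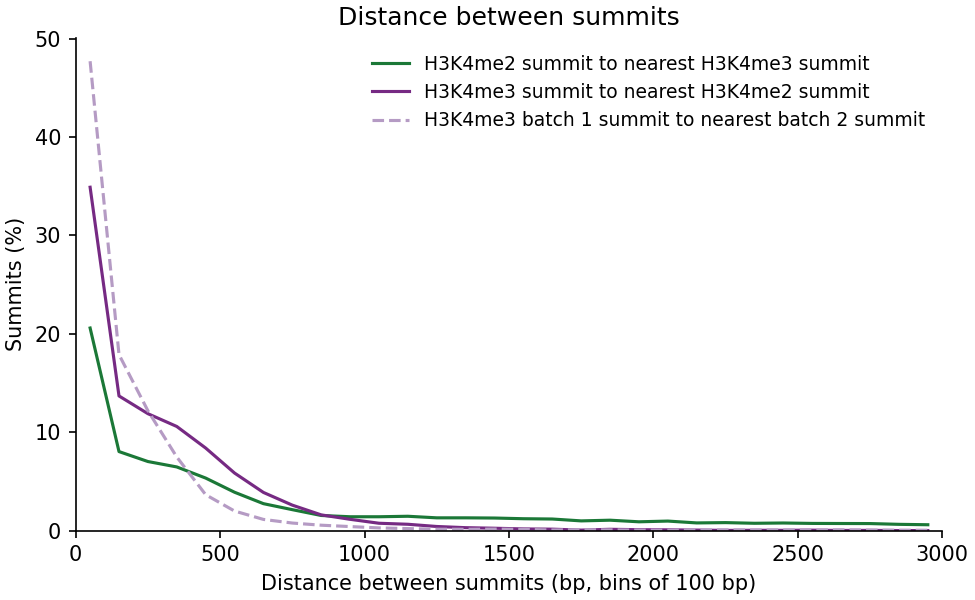
Distance from each summit to the nearest summit of the other list, in bins of 100 bp up to 3000 bp (x axis), as percent of summits (y axis). Within 100 bp are 20.7% of H3K4me2 summits and 35.1% of H3K4me3 summits, and 47.9% of H3K4me3 summits when batch 1 is set against batch 2; the H3K4me2 line keeps a low tail out to 3000 bp.

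H3K4me2 lay on the side of H3K4me3 that faces into the gene. The RefSeq annotation used here (assembly ObraRS2, the assembly named in the lists) gives gene positions without strand, so the direction was taken from the gene end at the H3K4me3 interval towards the rest of that gene. H3K4me3 lay at gene ends: 79.9% of its intervals had an end of a protein-coding gene inside or within 500 bp, against 56.5% of H3K4me2 intervals. The areas within 500 bp of such an end take up 16.8% of the chromosomes and held 31.8% of H3K4me2 summits and 60.5% of H3K4me3 summits. Exactly 1 end was found at 15316 H3K4me3 intervals, whose summits lay a median of 325 bp inside the gene (quartiles 210 and 472 bp).

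Around these 15316 H3K4me3 summits, H3K4me2 was not centred. Its intervals held 78.6% of the summit positions, 75% of the positions 500 bp into the gene and 16.4% of those 500 bp away from it. At 1000 bp the shares were 36.7% on the gene side and 4.28% on the outer side. Taking intervals with exactly 1 gene end keeps other gene ends away from the outer side, so the outer shares are partly given by the choice. At 3000 bp outward H3K4me2 held 12.7%, and H3K4me3 went from 2.68% at 1000 bp to 7.73% there. Around all H3K4me3 summits, in chromosome direction, H3K4me2 held 20.7% of positions at −1000 bp. H3K4me3 itself held 12.2% of positions 1000 bp into the gene. The highest share for H3K4me2, 81.1%, was reached 300 bp into the gene. The nearest H3K4me2 summit, where it lay within 3000 bp, was on the gene side for 11242 of 15104 H3K4me3 summits, or 74.4% (73.7% to 75.1%), with a median shift of 190 bp into the gene. It was more than 200 bp into the gene in 49.1% and more than 200 bp outward in 6.37%.

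Part of such a shift was also seen between libraries of H3K4me3. Batch 2 summits were on the gene side of batch 1 summits in 67.2%, with a median shift of 48 bp. Around H3K4me3 summits of batch 2, H3K4me2 summits were on the gene side in 71.2%, with a median shift of 132 bp. The 1000 bp next to an H3K4me3 interval held on average 365 bp of H3K4me2 on the gene side and 73.5 bp on the outer side. For H3K4me3 of batch 2 these were 121 bp and 25.7 bp. H3K4me2 thus held more than the second H3K4me3 list on the gene side and on the outer side. Its list also takes up more of the chromosomes, 12.8% against 8.33%. With equal numbers of intervals the H3K4me2 summit was on the gene side in 69.9%, near the 67.2% between the H3K4me3 batches. With 1 H3K4me2 library these differences could not be tested. Where exactly 1 edge of an H3K4me3 interval at 1 gene end lay inside H3K4me2, it was the gene-side edge in 7360 of 7888 intervals (93.3%, interval 92.7% to 93.8%). Where the H3K4me3 summit was uncovered and H3K4me2 lay on 1 side, that side was the gene side in 2663 of 2695 intervals, or 98.8% (98.3% to 99.2%). The choice of intervals with exactly 1 gene end enters all of these outer-side values.

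**Figure D3:**
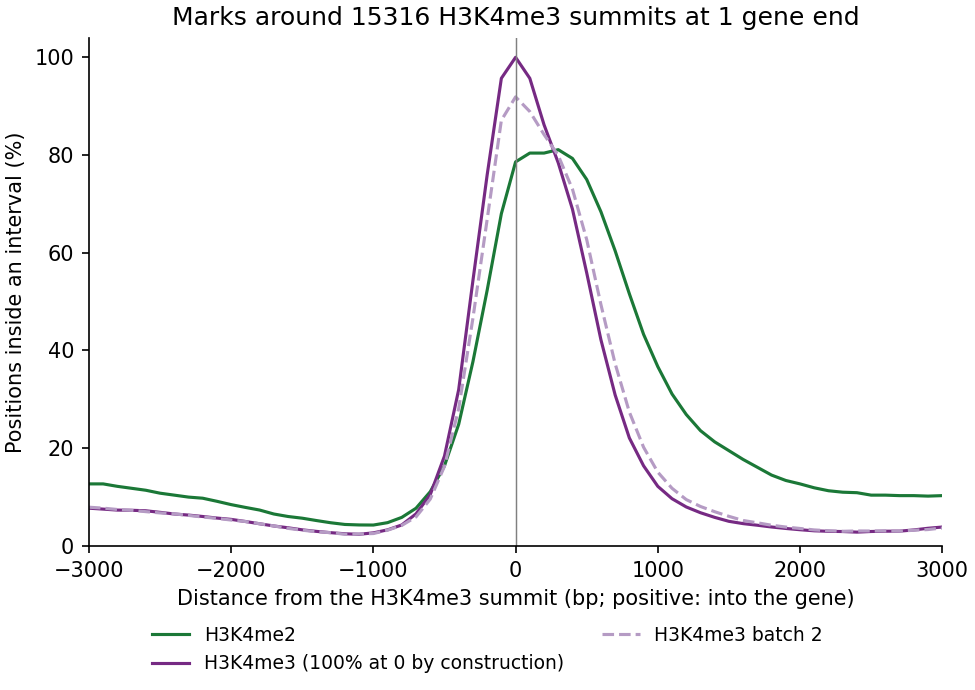
Percent of positions inside an H3K4me2 interval, an H3K4me3 interval or an H3K4me3 interval of batch 2 (y axis), at distances of up to 3000 bp from 15316 H3K4me3 summits at exactly 1 gene end (x axis, positive values into the gene). H3K4me2 is highest, at 81.1%, 300 bp into the gene, and holds 36.7% of positions at 1000 bp into the gene against 4.28% at 1000 bp outward. The choice of exactly 1 gene end keeps other gene ends away from the outer side.

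The position of H3K4me2 changed with the strength of H3K4me3. The H3K4me3 intervals were split into quartile groups by −log10 q, from group 1 (1.31 to 12.6) to group 4 (89.9 to 243). H3K4me2 covered the summit in 96.7% of group 1, 95.9% of group 2, 81.4% of group 3 and 56% of group 4. Both edges lay inside H3K4me2 in 90.6%, 54.9%, 9.75% and 3.2% of groups 1, 2, 3 and 4, whereas exactly 1 edge did in 5.65%, 33.7%, 65.9% and 66.7%. The weakest H3K4me3 intervals were thus embedded in H3K4me2 and the strongest met it at 1 edge.

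At gene ends the shift of H3K4me2 into the gene went the same way. The nearest H3K4me2 summit was on the gene side in 59.9%, 63.6%, 79.3% and 87.0% of groups 1, 2, 3 and 4, with median shifts of 25, 42, 239 and 362 bp. In group 4 the share of positions inside H3K4me2 was 54.5% at the H3K4me3 summit and 79% at 400 bp into the gene. Strong H3K4me3 intervals were also wider, with a median of 378 bp in group 1 and 1048 bp in group 4. The intervals were therefore also split by strength within each quartile of width. Among intervals of 839 to 1108 bp the summit was covered in 95.7%, 80.7%, 64.4% and 50% from the weakest to the strongest quartile, and among those of 1109 bp or more in 96.8%, 84.6%, 67.4% and 45.1%. Among intervals of 552 to 838 bp these were 97.8%, 96.2%, 88.6% and 70.9%. In the narrowest, of 166 to 551 bp, coverage varied little with strength, with 96.3%, 95.9%, 96.6% and 92.8%. Strong intervals were rare among these, with a median −log10 q of 22.4 in their strongest quartile. The weakest quartile of the intervals of 839 to 1108 bp had a median of 29.2. When the −log10 q came from the batch 2 interval at the same place, the summit was covered in 97.8%, 93.6%, 78.6% and 56.4% of batch 1 intervals. With the batch 2 list in place of batch 1 throughout, these were 93.2%, 94.8%, 87.8% and 66.8%, so the lowest group was then not the most covered. The gene side with the batch 2 list was 65.7%, 58.3%, 72.4% and 82.3%, with median shifts of 68, 27.5, 133 and 251 bp, so the weakest group was above the second there too.

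**Figure D4:**
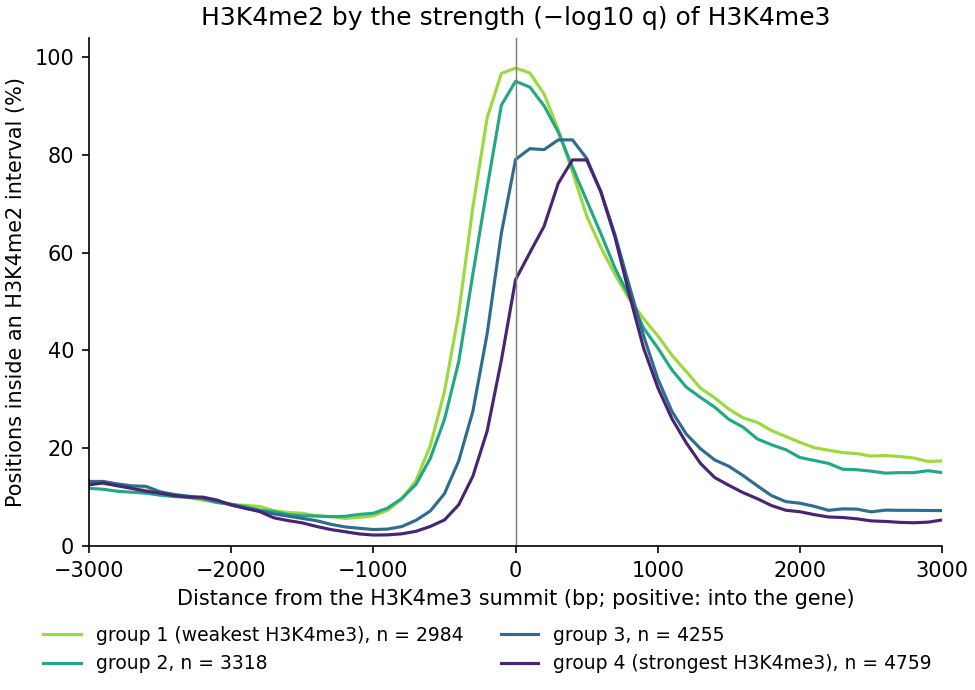
Percent of positions inside an H3K4me2 interval (y axis) by distance from the H3K4me3 summit (x axis, bp, positive values into the gene), with H3K4me3 intervals at exactly 1 gene end split by −log10 q from group 1 (weakest) to group 4 (strongest). In group 1 the line is highest at the summit, at 97.8%; in group 4 it stands at 54.5% there and reaches 79% at 400 bp into the gene.

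Strong H3K4me2 and strong H3K4me3 were found at different places. Among 21828 H3K4me3 intervals that touched a single H3K4me2 interval, the −log10 q of the marks was inversely related across places (Spearman's rho −0.691; places within a library are not replicates, and both values depend on the same local chromatin and mappability). The rho was −0.667 with H3K4me3 of batch 2 and −0.602 with pileup in place of −log10 q. Between the H3K4me3 batches it was 0.847. The H3K4me2 partner had a median −log10 q of 52.2, 29.7, 13.4 and 9.46 for H3K4me3 groups 1, 2, 3 and 4.

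Seen from H3K4me2, its intervals were split by their own −log10 q. H3K4me3 was touched by 25.4%, 65.5%, 74.0% and 73.3% of groups 1 to 4, from weak to strong. The strongest group thus met H3K4me3 as often as the one below it, but the H3K4me3 it met was weak: the partner's median −log10 q was 62.7 for H3K4me2 group 3 and 11.9 for group 4. A partner from the strongest H3K4me3 quartile was met by 1.51% of H3K4me2 group 4 and by 31.4% of group 2. Other marks moved along with this. H3K27me2 was touched by 5.22%, 11.7%, 36.3% and 85.6% of H3K4me2 groups 1 to 4, against 75.2%, 57.1%, 18.9% and 5.55% of H3K4me3 groups 1 to 4. H3K9Ac was touched by 25.4%, 67.6%, 77.4% and 49.1% of the H3K4me2 groups and by 41.5%, 87.3%, 98.8% and 99.9% of the H3K4me3 groups. For scale, H3K27me2 takes up 6.24% and H3K9Ac 7.09% of the chromosomes. The median width of the intervals also differed, with 279, 566, 879 and 1140 bp in H3K4me2 groups 1 to 4, and wider intervals touch other lists more often. The part of width and of these marks in the pattern was not tested.

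Along genes the marks overlapped at one end and H3K4me2 continued further. Of 12487 protein-coding genes of at least 3000 bp, 9945 had H3K4me3 within 500 bp of exactly 1 end, and their direction was set by that end, so the H3K4me3 curve is partly given by the choice. In the first 5% of the gene H3K4me2 was present in 54.3% of these genes and H3K4me3 in 89.6%. H3K4me2 was highest at 10% to 15% of the length, with 68.8%, where H3K4me3 had 72.2%. From 20% to 25% of the length H3K4me2 was present in 50.7% and H3K4me3 in 35.1%, and from 45% to 50% in 14.2% and 4.18%. From 75% to 80% of the length H3K4me2 was present in 10.2% and H3K4me3 in 1.63%. For scale, H3K4me2 takes up 12.8% and H3K4me3 8.27% of the chromosomes. From 50% of the length onward H3K4me2 was thus below its share of the chromosomes, and H3K4me3 was further below its own. Nearer the far end the choice of genes keeps H3K4me3 out, so the marks are not compared there. Just outside the H3K4me3 end, 100 bp from it, the marks were close, with 12% for H3K4me2 and 13.4% for H3K4me3.

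**Figure D5:**
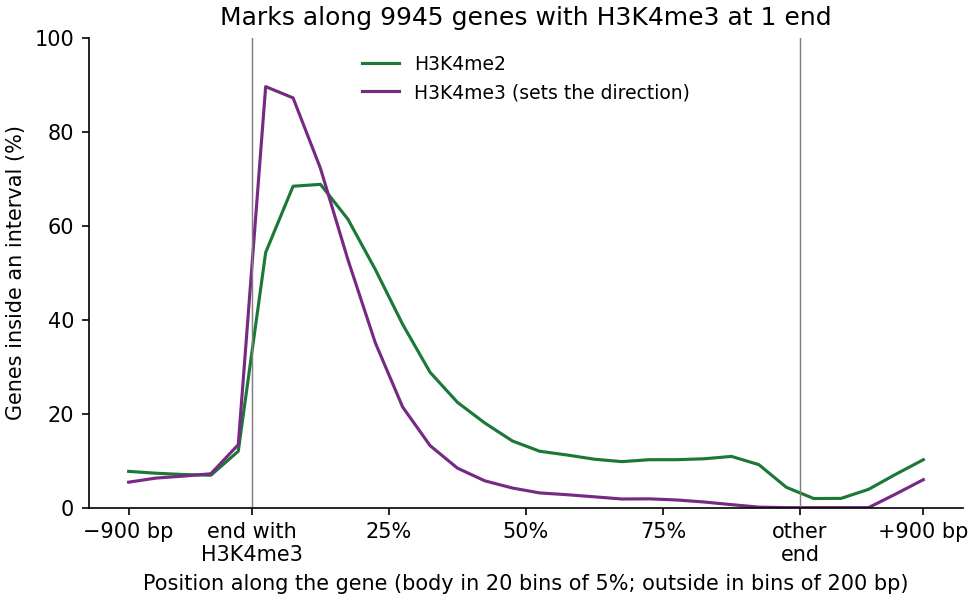
Percent of 9945 protein-coding genes of at least 3000 bp (y axis) that lie inside an H3K4me2 or H3K4me3 interval at each position (x axis), from 900 bp outside the end that holds H3K4me3, through the gene body in 20 bins, to 900 bp outside the other end. H3K4me2 is below H3K4me3 at the start of the body, 54.3% against 89.6%, and above it from about 15% of the length onward; at the far end H3K4me3 is kept out by the choice of genes.

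The H3K4me2 intervals without H3K4me3 were mostly inside genes, and often deep in them. They were short, with a median width of 378 bp against 896 bp for H3K4me2 that touched H3K4me3, and had a median −log10 q of 5.79 against 17.0. Their summits lay inside protein-coding genes in 75.2% (85% of H3K4me2 with H3K4me3), while such genes take up 35.2% of the chromosomes. More than 1000 bp from either gene end were 42.2% of them (7045 intervals), against 12.1% of H3K4me2 with H3K4me3. Outside genes and more than 1000 bp from any gene end were 19.8% (3309 intervals), against 11.4%. The parts of the chromosomes that lie deep in genes or far outside them were not computed. These shares therefore show neither an excess nor a lack against the genome. H3K4me3 lay mostly at gene ends, so the split by H3K4me3 itself leaves intervals away from the ends in this class. Genes that carried H3K4me3 elsewhere held 54.2% of these summits (9052), and such genes take up 31% of the chromosomes. All protein-coding genes held 75.2% of the summits on 35.2% of the chromosomes. Genes with H3K4me3 held a smaller part of the summits in genes than of the length of genes. H3K4me2 intervals that touched H3K4me3 in these genes were left out beforehand, so this smaller part is at least partly given by the choice of class. The nearest H3K4me3 edge was a median of 2321 bp away, and 24% had one within 1000 bp. The second H3K4me3 list had an interval on 11.4% of them, which left 14790, or 35.9% of all H3K4me2 intervals, outside both H3K4me3 lists.

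Both acetylation marks were found less often on H3K4me2 intervals without H3K4me3, and H3K9me2 more often. H3K9Ac was touched by 14.6% of H3K4me2 intervals without H3K4me3 and by 82.2% of those with it. H3K56Ac, from batch 2, was touched by 22.4% without and by 85.9% with H3K4me3. H3K27me2 differed less, with 31.0% without and 37.2% with H3K4me3. H3K9me2 was below its share of the chromosomes on both, with 1.8% and 2.26% in its batch 1 and batch 2 lists on H3K4me2 without H3K4me3, and 0.18% and 0.396% on H3K4me2 with it, although it takes up 9.18% and 12.5% of the chromosomes. None of the lists compared, H3K4me3 of batch 2 included, touched 52.2% of the H3K4me2 intervals without H3K4me3 and 0.617% of those with it. H3K4me3 of batch 2 alone touched 11.4% of those without and 94.6% of those with H3K4me3. The contrast is therefore largely set by how the classes were made. The widths and scores given above differ between these classes too, and longer intervals touch other lists more often. The part of this was not tested.

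The 757 H3K4me3 intervals without H3K4me2 were not weak. Their median −log10 q was 81.0 and their median width 818 bp, against 52.7 and 839 bp for the 23525 H3K4me3 intervals with H3K4me2. H3K9Ac was touched by 84.3% of them, close to the 81.8% of H3K4me3 with H3K4me2, and H3K56Ac by 84.7% and 87.4% of H3K4me3 without and with H3K4me2. H3K27me2 was touched by 3.83% without and by 40.3% with H3K4me2. The second H3K4me3 list held 86.3% of those without and 92.6% of those with H3K4me2.

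On genes, H3K4me2 was the more widespread mark. Over all 26302 RefSeq genes on the chromosomes, with 500 bp added on either side, 90.1% had H3K4me2 and 78.7% had H3K4me3. H3K4me2 alone was found on 12.8% and H3K4me3 alone on 1.34% of all genes. Of 23230 protein-coding genes, 19056 (82.0%) had both marks, 2828 (12.2%) H3K4me2 alone, 287 (1.24%) H3K4me3 alone and 1059 (4.56%) neither. Of 1082 pseudogenes, 267, or 24.7% (22.1% to 27.4%), had H3K4me2 alone and 544 (50.3%) had both. Of 1051 lncRNA genes, 158, or 15.0% (12.9% to 17.3%), had H3K4me2 alone and 499 (47.5%) had both. tRNA genes had H3K4me2 alone in 50 of 474 (10.5%) and both marks in 65 (13.7%), and none of 70 rRNA genes had either mark.

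Protein-coding genes with H3K4me2 alone were shorter and carried other marks than genes with both. Their median length was 1937 bp, against 3480 bp with both marks and 2592 bp with H3K4me3 alone. H3K27me2 lay on 74.1% of genes with H3K4me2 alone, 42.3% with both, 6.97% with H3K4me3 alone and 22.5% with neither. H3K9Ac lay on 21.9% of genes with H3K4me2 alone, 87.3% with both, 94.8% with H3K4me3 alone and 6.04% with neither. H3K9me2 of batch 1 lay on 1.8% of genes with H3K4me2 alone, 2.03% with both, 2.44% with H3K4me3 alone and 17.8% with neither. H3K9me2 of batch 2 lay on 3.54% of genes with H3K4me2 alone, 3.06% with both, 7.32% with H3K4me3 alone and 28.6% with neither, so the order of the first 2 classes turned between its batches. The batch 2 H3K4me3 list had an interval on 32.7% of the genes with H3K4me2 alone, so a part of this class depends on the H3K4me3 library.

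Single loci differed in their arrangement. The gene with the strongest H3K4me3, LOC102716375 (chromosome 7 from 44367 to 50298), had its H3K4me2 interval from 45179 to 45463 with a summit at 45417 (−log10 q 5.75). Its H3K4me3 interval ran from 44406 to 45649, with a summit at 44935 (−log10 q 243), so that the H3K4me2 summit lay 482 bp farther into the gene. At LOC102716826 (chromosome 1 from 25046965 to 25052717) the H3K4me2 interval of 223 bp (25052514 to 25052736) lay within the H3K4me3 interval from 25051226 to 25052801, with its summit 67 bp farther outward, towards the gene end, than that of H3K4me3. At LOC102706436 (chromosome 1 from 27283383 to 27286080) the strongest H3K4me2 interval in reach, from 27281314 to 27283087, lay outside the gene and H3K4me3 at its other end, from 27284945 to 27286126, with summits 3166 bp apart.

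Among genes with H3K4me2 and no H3K4me3, the strongest H3K4me2 was at LOC107304069 (chromosome 4 from 6981752 to 6983880), with an interval from 6981842 to 6982650 (pileup 192, 11.3-fold, −log10 q 127). It was followed by LOC102702866 on chromosome 7 (2477141 to 2481161, −log10 q 126) and LOC102720055 on chromosome 6 (20220125 to 20220794, −log10 q 118), where the H3K4me2 interval of 2469 bp was longer than the gene. All 3 had H3K27me2 intervals and none had H3K9Ac or H3K56Ac. The batch 2 list had an H3K4me3 interval at LOC107304069 and LOC102720055 but not at LOC102702866. Among genes with H3K4me3 and no H3K4me2, the strongest were LOC121054887 on chromosome 7 (21334 to 22670, −log10 q 230), LOC121056008 on chromosome 12 (146871 to 147563, −log10 q 171) and LOC102699698 on chromosome 6 (18956720 to 18958396, −log10 q 165). All 3 of these had H3K9Ac, H3K56Ac and batch 2 H3K4me3, and none had H3K27me2.

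The widest intervals each lay on annotated protein-coding genes. Without H3K4me3, the widest H3K4me2 intervals were on chromosome 3 from 18847282 to 18852395 (5114 bp, at LOC102706928), chromosome 3 from 4718215 to 4723291 (5077 bp, at LOC102712063) and chromosome 5 from 16740272 to 16744554 (4283 bp, at LOC102701266). The nearest H3K4me3 summits were 19123, 6276 and 6892 bp away from their summits. H3K27me2 covered 56%, 39.6% and 0% of them, and H3K4me3 of batch 2 covered 6.02%, 18.4% and 22.0%. The widest H3K4me2 intervals with H3K4me3 were on chromosome 2 from 21646116 to 21653265 (7150 bp, at LOC102704031), chromosome 10 from 11682524 to 11688663 (6140 bp, at LOC102714681) and chromosome 1 from 2083828 to 2089509 (5682 bp, at LOC102718039 and LOC102718962). Each enclosed or met 2 H3K4me3 intervals, which covered 13.5%, 48.3% and 17.8% of its length. The widest H3K4me3 intervals, on chromosome 7 from 14522440 to 14527338 (4899 bp, at LOC102710035), chromosome 2 from 16438746 to 16442898 (4153 bp, at LOC102711408) and chromosome 3 from 24658680 to 24662740 (4061 bp, at LOC102703026), met 2, 3 and 5 H3K4me2 intervals. H3K4me2 covered 26.6%, 75.8% and 55.9% of them. Of the H3K4me3 intervals without H3K4me2, that of second highest −log10 q (195) lay on chromosome 10 from 9007964 to 9008682, at LOC102705845, with an H3K4me2 summit 1232 bp from its own.

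Most measures of the relation of the marks varied little between the 12 chromosomes. The share of H3K4me2 intervals outside H3K4me3 ranged from 39.0% on chromosome 5 to 43% on chromosome 11, with a median of 40.4%. The share of H3K4me3 intervals outside H3K4me2 varied more for its size, from 2.54% on chromosomes 1 and 4 to 4.19% on chromosome 8. The share of H3K4me3 summits inside H3K4me2 ranged from 80.5% on chromosome 8 to 84.1% on chromosome 10. The nearest H3K4me2 summit was on the gene side in 73.1% (chromosome 8) to 75.5% (chromosome 6). H3K4me2 density ranged from 129 intervals per Mb on chromosome 11 to 179 on chromosome 1, and H3K4me3 density from 74.3 on chromosome 11 to 105 on chromosome 3. There were 1.63 to 1.77 H3K4me2 intervals per H3K4me3 interval. Over the same chromosomes H3K9me2 coverage, the mean of its batch 1 and batch 2 lists, varied from 5.90% (chromosome 1) to 19.1% (chromosome 12).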

How the data were processed

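The submitters' processing notes name Bowtie, MACS2 and bedtools, and the deposited peak names hold the word macs2. Versions, thresholds and the handling of multi-mapped reads are not given in the sources used here. Tissue (8 g) was fixed in 3% formaldehyde and libraries were read as 90 bp pairs, per the labels. Each deposited line gives an interval, a summit, a pileup signal and 3 joined scores, which from their values are the authors' −log10 p, fold ratio over the control and −log10 q. Starts, ends and summits were read as counted from 1, since a summit can equal either end. No depth is given, so its effect on peak numbers is unknown.

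From these lists, 8 of them used, overlaps, distances and profiles were computed with Python 3.11.15, NumPy 2.4.6 and pandas 2.3.3, after the routines were tested on simulated intervals. A shared base counted as overlap. Intervals in brackets are exact Clopper-Pearson intervals at 95% (SciPy 1.17.1). Gene positions are from RefSeq (ObraRS2), and all 12 chromosome names matched. The table gives neither strand nor description. The planned result on the side of the start was therefore replaced by the side of the gene, the window at the start by a window around the gene, and gene lists by gene types. The planned rule named 8 genes with a description per class; without descriptions the 3 strongest of each class are named, and named regions are the 3 widest of each class and the strongest H3K4me3 intervals without H3K4me2. Members, comparisons and lists were chosen with earlier results of these data known. Sequences were not used here.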

Additional observations from a re-analysis of the deposited data

How the results depend on the processing

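Values were compared with the spread (SD) between those from the 2 H3K4me3 batches. With the stronger 50% of each list, the median width of H3K4me2 minus that of H3K4me3 was −10 bp in place of −157 bp, and 114 bp with equal numbers of intervals, 130 bp with H3K4me2 limited to a −log10 q of at least 10 (an alternative chosen after seeing the data) and −98 bp with batch 2 H3K4me3. The sign thus turned with equal numbers and with the −log10 q limit, both of which leave out weak H3K4me2 intervals alone. In the same order (stronger 50%, equal numbers, −log10 q limit, batch 2), H3K4me2 outside H3K4me3 was 74.5%, 26.2%, 26.3% and 39.1%, and H3K4me3 outside H3K4me2 57.6%, 24%, 27.3% and 4.02%. The median summit distance was 6457, 313, 303 and 464 bp. H3K4me3 summits covered were 36.1%, 69.9%, 67.6% and 85.6%, H3K4me2 on flanks only 9.23%, 8.17%, 7.21% and 12.4%, and the gene side 71.5%, 69.9%, 68.6% and 71.2%. With at least 50% of an interval shared, 53.3% of H3K4me2 and 16.7% of H3K4me3 lay outside the other. With midpoints in place of summits the median distance was 451 bp and the gene side 80.7%. H3K4me2 alone on protein-coding genes was 12.6% with 200 bp and 11.4% with 1000 bp around the gene, compared with its binomial interval. The cause of these changes was not tested. Unplaced sequences, joined gaps, other flank widths and genes from 3000 bp moved no value by more than the spread. The planned result on the side of the gene start was not run, since the gene table has no strand. No paired analysis was possible because H3K4me2 has 1 library, in batch 1 only, and leaving out a replicate was likewise not possible. With 1 H3K4me2 library, the spread of H3K4me2 between plants is not known.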

Other observations

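Acetylation summits lay slightly outward of H3K4me3, unlike those of H3K4me2. Around the H3K4me3 summits at exactly 1 gene end, the nearest H3K4me2 summit was on the gene side in 74.4% of cases with a median shift of 190 bp into the gene. For H3K9Ac, of the same batch, it was 33.9% (exact binomial interval 33.1% to 34.7%, n = 13633), with a median shift of −24 bp, that is outward. For H3K56Ac of batch 2 it was 36.7% (35.9% to 37.5%, n = 14315), with a median of −23 bp. Both shifts are smaller than the 48 bp between the H3K4me3 batches. H3K27me2 had a summit within 3000 bp at 6495 of these places, on the gene side in 48.9% (47.7% to 50.2%), with a median of −3 bp. These marks have input as control in the titles, unlike the H3K4 lists of batch 1.

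The H3K4me3 batches also differed in position. Batch 2 summits were on the gene side of batch 1 summits in 67.2%, and batch 1 summits on the gene side of batch 2 summits in 38.0%, with a median of −33 bp, so the batch 2 list lay farther into genes than the batch 1 list.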
